A study of Mus with 10 samples.

Results

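The genes of the CD3 chains, *Cd3e*, *Cd3d* and *Cd3g*, and 6 other genes of T cell surface proteins, *Cd8a*, *Cd8b1*, *Cd4*, *Cd5*, *Cd28* and *Cd2*, were examined in type 1 innate lymphoid cells (ILC1s) of the mouse liver. They were picked by gene symbol, with earlier results of these data known, and are 9 of the 24564 genes in the deposited table of counts. ILC1s are tissue-resident lymphocytes that carry no rearranged antigen receptor. The RNA sequencing data comprised 5 libraries from *Ncr1+/+* mice and 5 libraries from *Ncr1gfp/gfp* mice, in which a *gfp* reporter sits in place of *Ncr1*. The activating receptor NKp46 is missing from most *Ncr1gfp/gfp* ILC1s, and the study still found it on a small share of them. All mice had the C57BL/6 background, were male or female and were 6 to 8 weeks old per the study's methods. In both genotypes the sorted cells were negative for CD3 and CD49b and positive for NK1.1 and CD49a. *Ncr1+/+* cells were taken as NKp46-positive and *Ncr1gfp/gfp* cells as GFP-positive, so that the last step of the gate differed between the genotypes. The CD3 antibody of the gate binds CD3ε, the product of *Cd3e*, so the gate was set against cells with CD3ε at the surface in both genotypes. The study accepted sorts above a purity limit that was short of complete, so some cells from outside the gate may be present. The sample labels name no treatment. The study speaks of RNA pools without saying whether each library held 1 mouse or several, and the p-values therefore measure the spread between libraries, which may be partly technical.

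In T cells, the CD3ε, CD3δ and CD3γ chains pair with each other and, together with the ζ chain encoded by *Cd247*, carry the signal of the T cell receptor into the cell. CD8 and CD4 are co-receptors that bind major histocompatibility complex molecules and bring the kinase Lck to the receptor. CD8 is made of CD8α and CD8β chains, or of CD8α alone, and the form with CD8α alone is known from cells outside the conventional T cell lineage. CD28 gives the costimulatory signal, CD2 is an adhesion and costimulatory receptor, and CD5 dampens the signal of the T cell receptor. Natural killer (NK) cells and innate lymphoid cells can hold RNA of single CD3 chains without showing a T cell receptor at the surface.

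Total counts ranged from 15796253 to 21975879 in *Ncr1gfp/gfp* libraries and from 17996935 to 22623133 in *Ncr1+/+* libraries. Counts were scaled to library size as CPM, that is counts per 1 M counts, with TMM factors, which correct for differences in library composition, and 3 counts, taken as the limit of detection, corresponded to between 0.132 and 0.190 CPM. *Ncr1* itself had 141 to 356 CPM in *Ncr1gfp/gfp* and 1913 to 2144 CPM in *Ncr1+/+* ILC1s. The sort marker gene *Itga1* (CD49a) was present in every library and was higher in every *Ncr1gfp/gfp* library, at 971 ± 35.1 against 779 ± 30.4 CPM (SD over 5 libraries per genotype). Its log2 fold change was 0.32. The summed CPM of 12 hepatocyte markers was highest in *Ncr1gfp/gfp* replicate 3, at 228 against 147 in the next library of its genotype, and in *Ncr1+/+* replicate 1, at 185 against 146. Most of this sum was *Trf* in every library, at 120 to 145 CPM in *Ncr1gfp/gfp* and 131 to 146 CPM in *Ncr1+/+* libraries. Results that changed without these 2 libraries are given with and without them.

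Of the 9 genes, 7 passed the filter on low counts and were tested, and *Cd8b1* and *Cd5* did not pass. A gene was called when its Benjamini-Hochberg (BH) adjusted p-value from the quasi-likelihood test of edgeR was under 0.05 and its fold change was above 1.5 or below 0.7. *Cd3e* and *Cd8a* were called higher in *Ncr1gfp/gfp* ILC1s and *Cd28* was called lower, while *Cd3d*, *Cd3g*, *Cd4* and *Cd2* were not called. Across all 11463 tested genes, 0.733% were called, of which 0.201% of the tested genes were higher and 0.532% were lower. The CPM of 4 of the 7 tested genes did not overlap between the genotypes. *Cd3e*, *Cd3g* and *Cd8a* were higher and *Cd28* was lower in every *Ncr1gfp/gfp* library. Across all tested genes, 3.11% did not overlap in either direction, 1.28% higher and 1.82% lower. The 9 genes were chosen with earlier results of these data known, so these comparisons with all tested genes are a description and no test. Since the libraries are bulk RNA, a different number of cells that hold a transcript and a different amount of it per cell cannot be told apart for any of these genes.

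**Figure D1:**
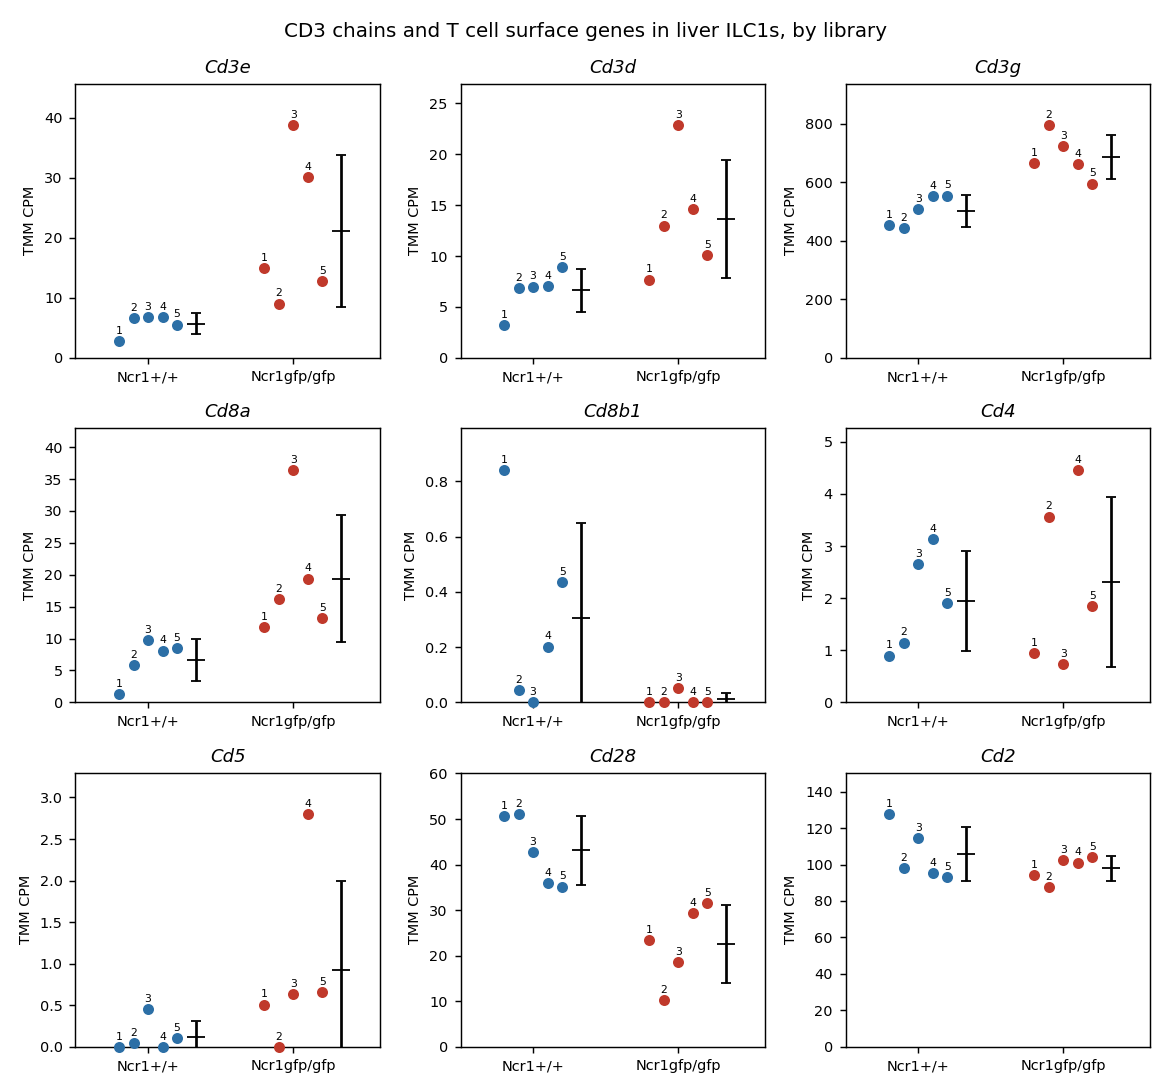
TMM-scaled CPM (y axis, linear, starting at 0) of the 9 genes in each library, in blue for the 5 *Ncr1+/+* and in red for the 5 *Ncr1gfp/gfp* libraries, numbered by replicate. The black bars give the mean ± SD of each genotype, cut at 0. *Cd3e*, *Cd3g* and *Cd8a* were higher and *Cd28* was lower in every *Ncr1gfp/gfp* library, and *Ncr1gfp/gfp* replicate 3 was the highest library for *Cd3e*, *Cd3d* and *Cd8a*.

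Among the CD3 chains, *Cd3e* rose, with the largest log2 fold change of the 7 tested genes, and stood 11th among all tested genes by the size of its increase. *Cd3g* rose by a small amount that varied little between libraries, and *Cd3d* lay between them without passing the test. The 3 genes sit side by side on chromosome 9, where the deposited table lists *Cd3g* at 44777655 to 44788514 on the minus strand, *Cd3d* at 44789869 to 44795135 on the plus strand and *Cd3e* at 44806826 to 44817673 on the minus strand. The cluster spans 40019 bases, and *Cd3g* and *Cd3d* are 1354 bases apart. The build of these coordinates is not named in the table, and the start positions differ from those of GRCm38 for all 9 genes. No other gene of the table overlaps any of the 9 genes.

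*Cd3e*, which encodes the chain that pairs with both CD3δ and CD3γ, had 15.0, 9.05, 38.8, 30.2 and 12.7 CPM in *Ncr1gfp/gfp* replicates 1 to 5 and 2.80, 6.62, 6.85, 6.76 and 5.55 CPM in *Ncr1+/+* replicates 1 to 5. These values came from 198 to 732 counts per *Ncr1gfp/gfp* library and from 50 to 150 counts per *Ncr1+/+* library. The lowest *Ncr1gfp/gfp* library, replicate 2, was above the highest *Ncr1+/+* library, and replicates 3 and 4 were far above the other *Ncr1gfp/gfp* libraries. The mean was 21.1 ± 12.7 CPM in *Ncr1gfp/gfp* and 5.72 ± 1.71 CPM in *Ncr1+/+* ILC1s (SD over 5 libraries per genotype, p = 0.00794 by a two-sided exact permutation test, which is the lowest p possible with 5 against 5). On the log2 scale, the fold change was 1.88 (standard error, SE, 0.32, BH-adjusted p = 0.00235 by the edgeR quasi-likelihood test), a 3.68-fold difference. The call of *Cd3e* held in all 10 fits with 1 library removed, with log2 fold changes from 1.54 to 2.08. Without both libraries of high hepatocyte marker counts, the log2 fold change was 1.37 (BH-adjusted p = 0.0234 in the same edgeR test). The libraries left out were also the highest and the lowest library for *Cd3e*.

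The spread of *Cd3e* among *Ncr1gfp/gfp* libraries was wide, with a 4.28-fold difference between the highest and the lowest library, against 2.44-fold in *Ncr1+/+* ILC1s. The 2 *Ncr1gfp/gfp* libraries with the most *Cd3e*, replicates 3 and 4, were also those with the least *Ncr1*, at 141 and 172 CPM, and the other 3 had 285 to 356 CPM. Replicate 2 had the least *Cd3e* and the most *Ncr1*. The part of the *Ncr1* level in this spread was not tested.

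*Cd3d*, which encodes the chain that pairs with CD3ε in one of the 2 CD3 dimers, had 7.68, 13.0, 22.8, 14.6 and 10.1 CPM in *Ncr1gfp/gfp* replicates 1 to 5. In *Ncr1+/+* replicates 1 to 5 it had 3.25, 6.84, 7.00, 7.07 and 8.92 CPM. The genotypes overlapped, since *Ncr1gfp/gfp* replicate 1 was below *Ncr1+/+* replicate 5. The means were 13.6 ± 5.78 CPM and 6.62 ± 2.06 CPM (SD over 5 libraries per genotype, p = 0.0159 by a two-sided exact permutation test), and the log2 fold change was 1.04 with a standard error of 0.26. *Cd3d* missed the threshold across all genes with an adjusted p of 0.0527 (edgeR's quasi-likelihood test, BH adjustment). It lay close to the threshold and was called under 5 of the 8 other settings tried on the same fold limits, DESeq2 among them. Without both libraries of high hepatocyte marker counts, its log2 fold change was 0.61 (BH-adjusted p = 0.238 in the same edgeR test). The libraries left out were also the highest and the lowest library for *Cd3d*.

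*Cd3g*, which encodes the chain that pairs with CD3ε in the other dimer, was by far the most abundant of the 9 genes. Its CPM was 664, 793, 722, 661 and 595 in *Ncr1gfp/gfp* replicates 1 to 5 and 452, 442, 507, 552 and 554 in *Ncr1+/+* replicates 1 to 5. Every *Ncr1gfp/gfp* library was above every *Ncr1+/+* library, and the highest library of a genotype exceeded the lowest by only 1.33-fold and 1.25-fold, respectively. The mean was 687 ± 74.6 CPM against 501 ± 53.1 CPM (SD over 5 libraries per genotype, p = 0.00794 by a two-sided exact permutation test), a 1.37-fold difference. The log2 fold change of 0.45 (SE 0.07, BH-adjusted p = 0.00169 by the edgeR quasi-likelihood test) passed the limit on p and stayed under the 1.5-fold limit, so *Cd3g* was not called. Of all tested genes, 1.35% passed the limit on p alone. The adjusted p of *Cd3g* stayed under 0.05 in all 10 fits that left out 1 library, the highest being 0.00759 (edgeR's quasi-likelihood test), and was 0.0268 at a log2 fold change of 0.40 without both libraries of high hepatocyte marker counts.

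**Figure D2:**
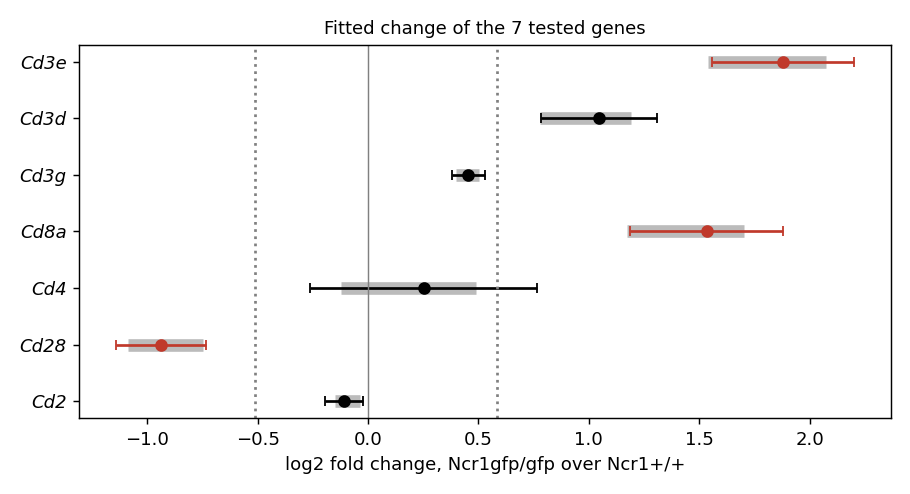
Fitted log2 fold change (x axis, *Ncr1gfp/gfp* over *Ncr1+/+*) of the 7 tested genes, with bars of 1 standard error. Grey bands span the values of the 10 fits without 1 library, dotted lines mark the fold limits of 1.5 and 0.7, and red points are called genes. The standard error of *Cd3g* was 0.07 and that of *Cd3e* 0.32, and the band of *Cd4* crossed 0.

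Levels of different genes were compared per length, as RPKM, the TMM-scaled CPM divided by the exon length in kilobases. Per length, *Cd3g* made up 94.1% to 98.0% of the summed RPKM of the 3 CD3 chains in *Ncr1gfp/gfp* libraries and 97.8% to 99.0% in *Ncr1+/+* libraries. The RPKM of *Cd3g* was 26.1 to 123 times that of *Cd3e* in *Ncr1gfp/gfp* libraries, with a median of 62.2, and 93.8 to 226 times in *Ncr1+/+* libraries, with a median of 115. Thus RNA of the 3 chains was far from equal in both genotypes. The log2 RPKM ratio of *Cd3e* to *Cd3g* was higher by 1.29 in *Ncr1gfp/gfp* ILC1s (two-sided exact permutation test, p = 0.0317), which did not pass after adjustment over the 5 ratios tested (adjusted p = 0.0794), and its values overlapped between the genotypes. For *Cd3d* to *Cd3g* the difference was 0.57 (exact permutation test, p = 0.127, adjusted p = 0.159), and for *Cd3e* to *Cd3d* it was 0.72 (exact permutation test, p = 0.0635, adjusted p = 0.106).

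By mean RPKM, the order in *Ncr1+/+* ILC1s was *Cd3g* (490 ± 51.9), *Cd2* (92.4 ± 13.0), *Cd28* (9.98 ± 1.77), *Cd3d* (4.97 ± 1.55), *Cd3e* (3.98 ± 1.19), *Cd8a* (2.14 ± 1.06) and *Cd4* (0.629 ± 0.308, SD, n = 5). The ranges of *Cd3d*, *Cd3e* and *Cd8a* overlapped with that of the next gene in this order, while *Cd3g*, *Cd2* and *Cd28* were each separate from the next. In *Ncr1gfp/gfp* ILC1s the order was *Cd3g* (671 ± 72.9), *Cd2* (85.6 ± 6.02), *Cd3e* (14.7 ± 8.85), *Cd3d* (10.3 ± 4.34), *Cd8a* (6.19 ± 3.18), *Cd28* (5.24 ± 1.99) and *Cd4* (0.747 ± 0.529, SD, n = 5). Here the ranges of *Cd3e*, *Cd3d* and *Cd8a* each overlapped with that of the next gene, *Cd28* was separate from *Cd4*, and the ranges of *Cd28* (2.37 to 7.31 RPKM) and *Cd3d* (5.78 to 17.2 RPKM) overlapped. Over all 10 libraries, the RPKM of *Cd3g* was above that of 99.7% of the tested genes and that of *Cd2* above 95.4%, whereas *Cd3e* exceeded 44.8%, *Cd28* and *Cd3d* each 39.1%, *Cd8a* 26.8% and *Cd4* 8.17%.

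**Figure D3:**
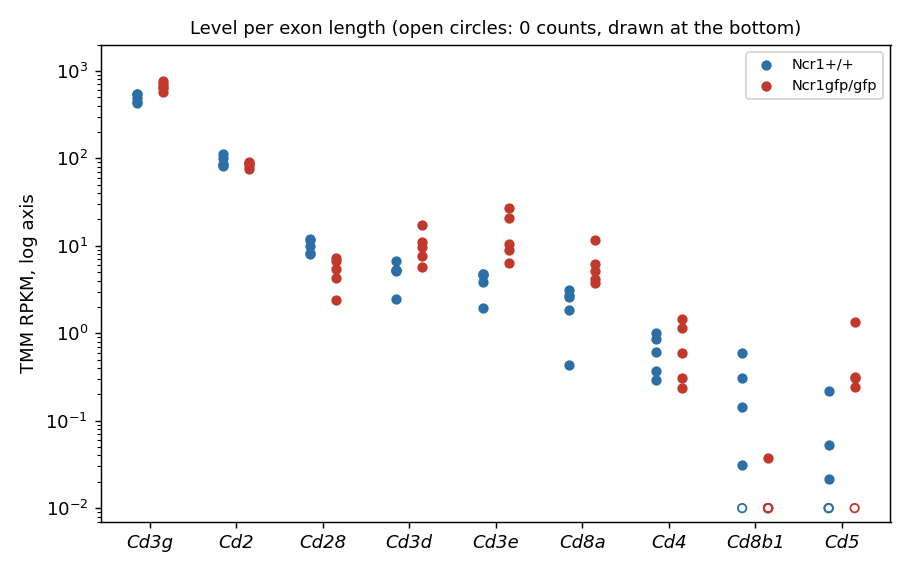
RPKM after TMM scaling (y axis, log scale) of the 9 genes in the order of their *Ncr1+/+* mean, 1 point per library, in blue for *Ncr1+/+* and in red for *Ncr1gfp/gfp*. Open circles at the bottom are libraries with 0 counts. *Cd3g* lies above all other genes, at 490 ± 51.9 and 671 ± 72.9 RPKM, and *Cd8b1* and *Cd5* lie at the bottom.

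Among the co-receptors, RNA of the α chain of CD8 was present in every library and rose in *Ncr1gfp/gfp* ILC1s, whereas RNA of the β chain was at or near the limit of detection. *Cd4* was low and did not pass the test. *Cd8b1* and *Cd8a* are neighbours on chromosome 6, at 71272806 to 71287445 and at 71323421 to 71329165, both on the plus strand and 35975 bases apart. *Cd4* lies on the minus strand of the same chromosome at 124814711 to 124838227.

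*Cd8a* had 11.8, 16.1, 36.4, 19.4 and 13.2 CPM in *Ncr1gfp/gfp* replicates 1 to 5 and 1.35, 5.78, 9.70, 8.13 and 8.49 CPM in *Ncr1+/+* replicates 1 to 5. The genotypes did not overlap. *Ncr1gfp/gfp* replicate 3 was the highest library and *Ncr1+/+* replicate 1, with 24 counts, the lowest. The means were 19.4 ± 9.96 and 6.69 ± 3.31 CPM (SD over 5 libraries per genotype, p = 0.00794 by a two-sided exact permutation test), with a log2 fold change of 1.53 (SE 0.35, BH-adjusted p = 0.0248 by the edgeR quasi-likelihood test), or 2.89-fold. The call was lost when *Ncr1gfp/gfp* replicate 3 or 4 or *Ncr1+/+* replicate 2 or 4 was left out, with BH-adjusted p-values of 0.0956, 0.0526, 0.0619 and 0.0504 by the same edgeR test and log2 fold changes of 1.17, 1.54, 1.48 and 1.61. It was also lost with DESeq2 (log2 fold change 1.54, adjusted p = 0.0766). Without both libraries of high hepatocyte marker counts, which were also the highest and the lowest *Cd8a* library, the log2 fold change was 0.91 (BH-adjusted p = 0.0353 in the same edgeR test).

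*Cd8b1* had 1 count in *Ncr1gfp/gfp* replicate 3 and 0 counts in the other 4 *Ncr1gfp/gfp* libraries. In *Ncr1+/+* replicates 1 to 5 it had 15, 1, 0, 4 and 8 counts, 28 in all. All 5 *Ncr1gfp/gfp* and 2 *Ncr1+/+* libraries were under 3 counts, so no fold change was given (two-sided exact permutation test of the CPM, p = 0.0873). The library with the most *Cd8b1*, *Ncr1+/+* replicate 1, was the one with the least *Cd8a*. In *Ncr1gfp/gfp* libraries, where *Cd8a* was higher, *Cd8b1* was thus not detected in 4 of 5 libraries, and a count of 0 allows up to 3 counts, or 0.137 to 0.190 CPM.

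*Cd4* had between 14 and 78 counts per library, with 0.952, 3.57, 0.741, 4.46 and 1.84 CPM in *Ncr1gfp/gfp* and 0.897, 1.15, 2.65, 3.13 and 1.90 CPM in *Ncr1+/+* replicates 1 to 5. The genotypes overlapped over most of their range. The log2 fold change was 0.25 with a standard error of 0.52 (BH-adjusted p = 0.923 by the edgeR quasi-likelihood test), and it was negative without *Ncr1gfp/gfp* replicate 4, at -0.12.

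Of the genes for costimulation and its control, *Cd28* fell, *Cd2* did not pass the test and *Cd5* was low, with counts in *Ncr1gfp/gfp* replicate 4 well above those of the other libraries. *Cd28* was the only one of the 7 tested genes that was called lower. It lies on the plus strand of chromosome 1 at 60803232 to 60830203, *Cd2* on the minus strand of chromosome 3 at 101079831 to 101091862 and *Cd5* on the minus strand of chromosome 19 at 10792633 to 10813464.

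*Cd28* had 23.4, 10.2, 18.5, 29.3 and 31.5 CPM in *Ncr1gfp/gfp* replicates 1 to 5 and 50.6, 51.0, 42.8, 35.9 and 35.2 CPM in *Ncr1+/+* replicates 1 to 5. The highest *Ncr1gfp/gfp* library, replicate 5, was below the lowest *Ncr1+/+* library, and replicate 2 was far below the rest. The means were 22.6 ± 8.59 and 43.1 ± 7.64 CPM (SD over 5 libraries per genotype, p = 0.00794 by a two-sided exact permutation test), a log2 fold change of -0.94 (SE 0.20, BH-adjusted p = 0.0189 by the edgeR quasi-likelihood test), so that the level in *Ncr1+/+* ILC1s was 1.91 times that in *Ncr1gfp/gfp* ILC1s. The call was lost when *Ncr1gfp/gfp* replicate 3 or *Ncr1+/+* replicate 1 or 2 was left out, with log2 fold changes of -0.87, -0.88 and -0.87 and BH-adjusted p-values of 0.0583, 0.0595 and 0.0516 by the same edgeR test. It was also lost with DESeq2 (adjusted p = 0.0525). Without both libraries of high hepatocyte marker counts, the log2 fold change was -0.81 and the adjusted p 0.125 (edgeR's quasi-likelihood test), so that the call was lost. The smaller number of libraries in this fit and a part of those 2 libraries cannot be told apart.

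*Cd2* had 94.4, 87.6, 103, 101 and 104 CPM in *Ncr1gfp/gfp* and 127, 98.2, 115, 95.2 and 93.0 CPM in *Ncr1+/+* replicates 1 to 5. The genotypes overlapped, with a log2 fold change of -0.11 (SE 0.09, BH-adjusted p = 0.717 by the edgeR quasi-likelihood test). The log2 RPKM ratio of *Cd28* to *Cd2* was -4.13 in *Ncr1gfp/gfp* and -3.22 in *Ncr1+/+* ILC1s on average, a ratio chosen after the values of both genes were seen and given as a description. *Cd5* had 8, 0, 12, 47 and 11 counts in *Ncr1gfp/gfp* and 0, 1, 9, 0 and 2 counts in *Ncr1+/+* replicates 1 to 5, 78 against 12 in all. The genotypes overlapped, *Ncr1gfp/gfp* replicate 4 held most of the counts, and 4 of 5 *Ncr1+/+* libraries were under 3 counts (two-sided exact permutation test of the CPM, p = 0.0556). In a fit with no filter on low counts, *Cd5* had a BH-adjusted p of 0.304 and *Cd8b1* of 0.333 (quasi-likelihood test of edgeR).

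To determine whether the genes varied together within a genotype, the mean log2 CPM of each genotype was subtracted from each library and the remaining deviations were correlated over the 10 libraries. *Cd8b1* was left out because it had under 3 counts in most libraries, which left 28 pairs of 8 genes. *Cd3d* and *Cd8a* varied together, *Cd3g* and *Cd28* varied in opposite directions, and the other 26 pairs did not pass after adjustment over the 28 pairs. How many of all tested genes correlated this strongly with *Cd3d*, *Cd8a*, *Cd3g* or *Cd28* was not counted, so neither pattern is shown to be particular to these pairs. The median r of the 28 pairs was 0.22, and 18 of them were positive.

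For *Cd3d* and *Cd8a*, Pearson's r was 0.91 (exact permutation within genotype, p = 0.000972, adjusted p = 0.0136) and Spearman's rho was 0.92 (p = 0.00139, adjusted p = 0.0194, the same permutation). Both were lowest in *Ncr1+/+* replicate 1, at 0.93 and 1.97 below the genotype mean on the log2 scale, and highest in *Ncr1gfp/gfp* replicate 3, at 0.83 and 1.03 above it. Without the 2 libraries farthest from the median of *Cd3d*, which were replicate 1 of each genotype, r was 0.85. Leaving out both libraries of high hepatocyte marker counts, *Ncr1+/+* replicate 1 and *Ncr1gfp/gfp* replicate 3, gave an r of 0.72 that no longer passed (exact permutation, adjusted p = 0.365). *Cd3e* had an r of 0.75 with *Cd8a* (exact permutation, p = 0.0121, adjusted p = 0.113, rho = 0.79 with an adjusted p of 0.0862) and of 0.74 with *Cd3d* (exact permutation, p = 0.0313, adjusted p = 0.175, rho = 0.78 with an adjusted p of 0.168). Without both libraries of high hepatocyte marker counts, these values were 0.33 and 0.20. Of 11456 other tested genes, 1.26% had an r with *Cd3e* at least as high as that of *Cd8a*, 1.49% at least as high as that of *Cd3d*, and 42.1% at least as high as that of *Cd3g*.

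*Cd3g* had no correlation with *Cd3e* that passed within a genotype, with an r of 0.10 (exact permutation, p = 0.796, rho = 0.04), although both were higher in *Ncr1gfp/gfp* ILC1s. Without the 2 libraries farthest from the median of *Cd3e*, this r was 0.40. With *Cd28*, *Cd3g* had an r of -0.88 (exact permutation, p = 6.944e-05, the smallest p that these permutations allow, adjusted p = 0.00194) and a rho of -0.96 (p = 6.944e-05, adjusted p = 0.00194, the same permutation). Within *Ncr1gfp/gfp* ILC1s, replicate 2 had the most *Cd3g* and the least *Cd28* and replicate 5 the least *Cd3g* and the most *Cd28*. In *Ncr1+/+* ILC1s, replicates 4 and 5 were high in *Cd3g* and low in *Cd28*, and replicates 1 and 2 the reverse. Without the 2 libraries farthest from the median of *Cd3g*, r was -0.85, and it stayed between -0.91 and -0.85 with an adjusted p under 0.05 in all 10 sets with 1 library removed (exact permutation, highest adjusted p = 0.0486). The deepest library of each genotype was replicate 2, which had the highest *Cd3g* of *Ncr1gfp/gfp* and the lowest *Cd3g* of *Ncr1+/+* ILC1s.

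**Figure D4:**
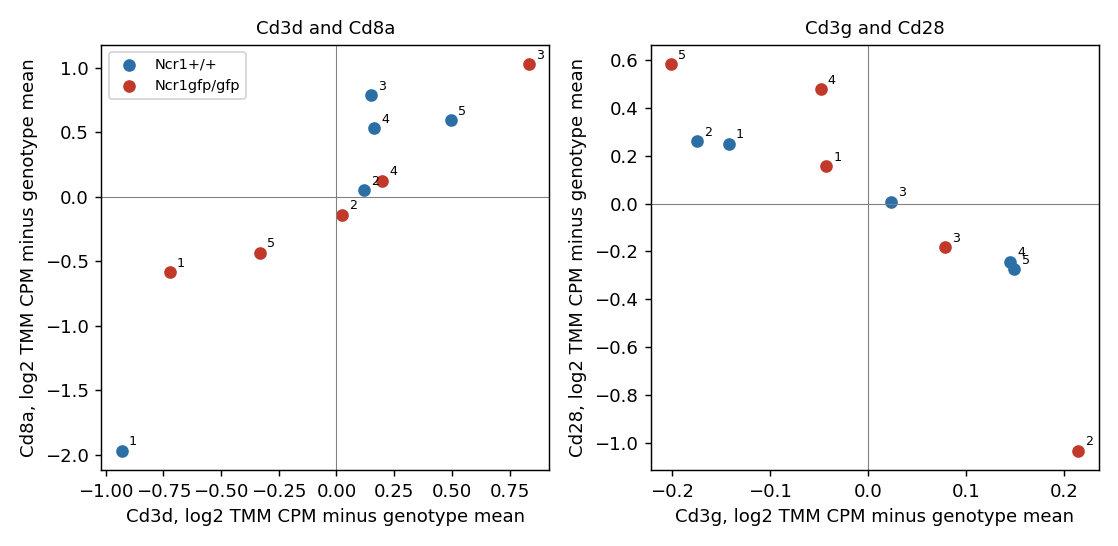
Deviation of each library from the mean of its genotype, in log2 TMM CPM, for *Cd3d* (x axis) against *Cd8a* (y axis) on the left and *Cd3g* (x axis) against *Cd28* (y axis) on the right, with replicate numbers, in blue for *Ncr1+/+* and in red for *Ncr1gfp/gfp*. On the left the points rise together (r = 0.91), with *Ncr1+/+* replicate 1 and *Ncr1gfp/gfp* replicate 3 at the ends, and on the right they fall (r = -0.88).

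Among the 5 genes with the most similar deviations to the mean standardised profile of the 3 CD3 chains over the 10 libraries, the 9 genes aside, were *Ino80e*, *Ganab*, *Mgll* and *Arf5*, with r between 0.92 and 0.96. They are given as a description, with no test, since they were ranked among all tested genes. None of them was called, their log2 fold changes lying between -0.22 and 0.02.

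Other genes of T cells were examined from a list of 22 T cell markers, of which 17 were in the table and 12 were tested. The median log2 fold change of the 12 genes was -0.16, against 0.00268 over all tested genes, and 11 of 12 were below 0, against 49.3% of all tested genes. The 1 gene above 0 was *Themis*, a low gene with a log2 fold change of 1.44. Genes of the list such as *Ubash3a* and *Bcl11b* were abundant in both genotypes, so the median and the direction cannot show a difference in T cells. Of the 12 genes, 1 was called lower and 0 were called higher, with an unadjusted p under 0.05 for 5 genes, each of them lower (edgeR's quasi-likelihood test). DESeq2 and limma-voom likewise called 0 of the 12 genes higher. The share of all tested genes with an unadjusted p under 0.05 was not counted. This count and those of the lists below therefore have no background beside them. The called gene was *Tcf7*, which encodes the transcription factor TCF-1, at 50.1 ± 12.4 CPM against 77.2 ± 14.0 CPM (SD over 5 libraries per genotype) with a log2 fold change of -0.63 (SE 0.14, BH-adjusted p = 0.0247 by the edgeR quasi-likelihood test). In 5 of the 10 fits that left out 1 library, no T cell marker was called. The related factor *Lef1* had 14.8 against 21.9 CPM without overlap (BH-adjusted p = 0.0529 in the same edgeR test). Limma-voom also called *Tcf7* lower and no other T cell marker. DESeq2 did not call *Tcf7* and called *Lef1* and *Ctla4* lower.

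*Ubash3a*, a regulator of T cell receptor signalling, had 141 against 145 CPM in *Ncr1gfp/gfp* and *Ncr1+/+* ILC1s, *Bcl11b*, a T cell commitment factor, 133 against 134 CPM, and *Trat1*, a transmembrane adaptor of the T cell receptor, 2.60 against 2.90 CPM. By library, *Trat1* had 1.97, 0.686, 5.03, 1.90 and 3.39 CPM in *Ncr1gfp/gfp* and 1.68, 3.93, 3.25, 2.27 and 3.37 CPM in *Ncr1+/+* replicates 1 to 5. *Themis*, an adaptor needed for thymocyte selection, had 0.670 against 0.243 CPM (BH-adjusted p = 0.527 by the edgeR quasi-likelihood test). *Cd6*, a surface receptor related to CD5, had 13, 0, 20, 4 and 0 counts in *Ncr1gfp/gfp* and 0, 1, 0, 1 and 0 counts in *Ncr1+/+* replicates 1 to 5. Of the T cell markers in the table, 4 were at or under a mean of 3 counts, among them the chemokine receptor gene *Ccr7*, which was at 0 in every *Ncr1gfp/gfp* library, and 1, *Dapl1*, was at 0 in all libraries. The summed CPM of the list was 720 to 832 in *Ncr1gfp/gfp* and 817 to 941 in *Ncr1+/+* libraries. *Ncr1gfp/gfp* replicate 3, the library with the most *Cd3e*, *Cd3d* and *Cd8a*, had a sum of 805, within the range of its genotype. Abundant genes such as *Ubash3a* and *Bcl11b* made up most of this sum, so it cannot show a small difference in low genes. *Trat1* and *Cd6* were both highest of the 10 libraries in this replicate, at 5.03 CPM and 20 counts, whereas *Themis*, at 0.582 CPM, was not. The genes of the T cell receptor chains themselves were not analysed here. The part of admixed T cells in these values was not tested.

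Downstream of the CD3 chains, a list of 44 genes of receptor-proximal signalling was tested in full. Of the 44 genes, 0 were called in either direction by edgeR's quasi-likelihood test, DESeq2 or limma-voom. In edgeR's test, 7 higher and 2 lower genes had an unadjusted p under 0.05, a count given without the share over all tested genes. The median log2 fold change of the 44 genes was 0.03, with 26 genes above and 18 below 0. *Cd247*, the gene of the ζ chain, had 89.3 ± 7.97 against 77.3 ± 9.12 CPM (SD over 5 libraries per genotype, BH-adjusted p = 0.331 by the edgeR quasi-likelihood test). The other signalling chain of NKp46, encoded by *Fcer1g*, had 508 against 477 CPM. The kinases *Lck*, *Fyn*, *Zap70* and *Syk* had 691, 345, 394 and 316 CPM in *Ncr1gfp/gfp* and 693, 329, 407 and 295 CPM in *Ncr1+/+* ILC1s, respectively. The adaptors *Lat* and *Lcp2* had 85.7 against 85.1 CPM and 475 against 485 CPM.

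Among relatives of CD28, CD2 and CD5 and their ligands, 18 of 24 listed genes were tested. Of these, 0 were called by edgeR's quasi-likelihood test, with an unadjusted p under 0.05 for 6 genes, while DESeq2 called *Ctla4* lower and limma-voom called 0. *Cd244* and *Cd7* passed the limit on p but stayed well under the fold limit, with log2 fold changes of 0.19 and 0.20 (BH-adjusted p = 0.0381 and 0.0459 by the edgeR quasi-likelihood test). *Ctla4*, which encodes an inhibitory receptor for the ligands of CD28, had 0.119 to 1.64 CPM in *Ncr1gfp/gfp* and 1.74 to 8.02 CPM in *Ncr1+/+* ILC1s without overlap, a log2 fold change of -2.12 (SE 0.54, BH-adjusted p = 0.0560 in the same edgeR test). *Icos*, a costimulatory receptor of the same family, had 29.8 against 38.8 CPM (BH-adjusted p = 0.223 in the same edgeR test). *Cd28*, *Ctla4* and *Icos* follow each other on chromosome 1, and all 3 had lower means in *Ncr1gfp/gfp* ILC1s, although only *Cd28* passed the test.

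**Figure D5:**
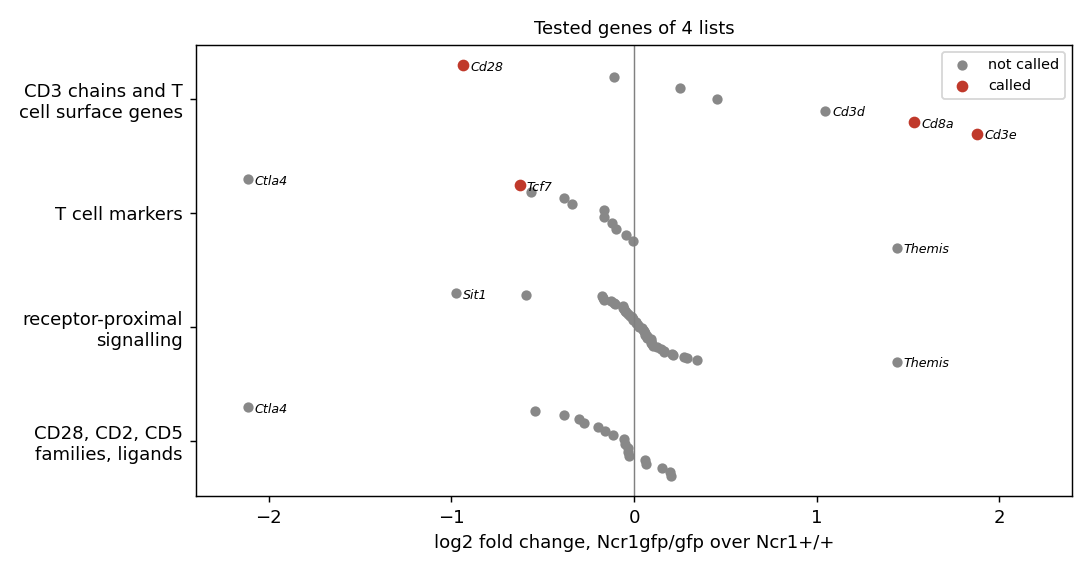
Fitted log2 fold change (x axis, *Ncr1gfp/gfp* over *Ncr1+/+*) of every tested gene of 4 lists, sorted within each list, with called genes in red. The 44 receptor-proximal genes have a median of 0.03 and none is called. Among the 12 T cell markers, some of which are abundant in ILC1s of both genotypes, 11 lie below 0 and *Themis* lies above it.

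The genes next to the 6 loci were compared as well, with 3 tested genes on either side of each locus. Of these 36 neighbours, 0 were called by edgeR's quasi-likelihood test and by limma-voom, 4 had an unadjusted p under 0.05, and DESeq2 called *Ctla4*. The CD3 cluster was flanked by *Ube4a* and *Mpzl3*, with log2 fold changes of 0.06 and 0.09, and the *Cd8* pair by *Krcc1* and *Rmnd5a*, with 0.10 and 0.03. Before *Cd28* lay *Raph1*, with a log2 fold change of -0.09.

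Markers of the other cells that the gate could hold were examined in the same libraries. For conventional NK cells, 2 of 17 tested markers were called higher, *Itgam* with a log2 fold change of 0.96 and *Klra7* with 1.57 (BH-adjusted p = 5.59e-05 and 0.00235 by the edgeR quasi-likelihood test), the reads of the latter gene being possibly split with near-identical genes of its family. Of the 17 markers, 13 were above 0 and 4 below. *Irf8*, which was lower in every *Ncr1gfp/gfp* library, had a log2 fold change of -0.24 and *Ly6c2* one of -0.77. Neither passed (BH-adjusted p = 0.0735 and 0.125 by the same edgeR test). The summed CPM of the NK cell markers was 813 to 927 in *Ncr1gfp/gfp* and 809 to 838 in *Ncr1+/+* libraries. For ILC1s, 2 of 16 markers were called lower, *Ncr1* and *Il7r*, and the sums were 10714 to 11126 and 12982 to 13513 CPM. *Ncr1*, the targeted gene, had a mean of 259 against 2029 CPM and made up most of this difference. *Itga1* passed the limit on p under the fold limit (BH-adjusted p = 0.000481 by the edgeR quasi-likelihood test). B cell and plasma cell markers summed to 6.67 to 9.95 and 4.82 to 12.6 CPM, and 0 of the 3 tested were called. Myeloid markers summed to 1673 to 1803 and 1343 to 1526 CPM, most of which was *Itgax*, and 0 of 10 were called. *Itgax* was higher in every *Ncr1gfp/gfp* library and passed the limit on p, with a log2 fold change of 0.28 under the fold limit (BH-adjusted p = 0.000539 by the edgeR quasi-likelihood test). Of the 3 tested hepatocyte markers, 0 were called, and of the 4 endothelial and stellate cell markers *Eng* was called lower, with 0 of the 4 called in 5 of the 10 fits that left out 1 library. Among 8 genes of RNA quality and stress, *Fos* was called lower, while DESeq2 and limma-voom called 0 of the 8 and the fits that left out 1 library called 0 to 3. For the lists with 0 calls, DESeq2 and limma-voom also called 0, with an unadjusted p under 0.05 in edgeR's test for 0 B cell, 1 myeloid and 1 hepatocyte marker. The part of these markers in the differences of *Cd3e*, *Cd3g*, *Cd8a* and *Cd28* was not tested.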

How the data were processed

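Liver ILC1s of 5 *Ncr1+/+* and 5 *Ncr1gfp/gfp* mice or mouse pools were compared, grouped by the genotype in the sample labels. RNA (2 ng) was amplified with polyA priming and read for 51 cycles from 1 end. Per the study's methods, the authors mapped trimmed reads with STAR and obtained a count per gene with HTSeq. They deposited these raw counts, the only unit used. The kit does not mark strand. If the default, stranded setting of HTSeq was used, reads of the other strand went uncounted for every gene. The methods name the mm10 build for mapping. Total counts and the 3-count limit per library are in the first paragraphs, and both cover counting error only.

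The deposited counts were filtered with filterByExpr (11463 of 24564 kept), normalized by TMM and tested with edgeR 4.0.16 (quasi-likelihood test, Benjamini-Hochberg adjustment over all tested genes) in R 4.3.3. The thresholds follow the study's methods (adjusted p under 0.05, fold change above 1.5 or below 0.7). Single values were compared with exact permutation tests. Correlations used log2 CPM with a prior count of 2, centred per genotype, with 14400 permutations within genotype. RPKM used the exon length of the table. The fit was tested on simulated data. Alternatives were DESeq2 1.42.0, limma-voom 3.58.1, the likelihood ratio test, upper-quartile scaling, other filters and thresholds, a replicate block and leaving out libraries. Leaving out both libraries of high hepatocyte markers and the 5 ratio tests were added after seeing the data.

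The 9 genes and the gene lists were chosen with earlier results of these data known. Named genes are the 9 genes, called genes of the lists, preset defining T cell and signalling genes, neighbours of called genes and the 5 genes most like the CD3 profile. Some genes that this rule names are not reported here. *Ctla4*, *Icos*, *Cd244*, *Cd7*, *Ccr7*, *Dapl1*, *Itgax*, *Itga1*, *Irf8*, *Ly6c2* and *Trf* fall outside this rule or were named after their values were seen. No 2 libraries of a genotype agreed within sampling noise (20 pairs, chi-square per gene 9.26 to 24.3). Replicate numbers did not pair the libraries: deviations of libraries with the same number correlated between -0.0173 and 0.0442. No column of the table was left unmapped.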

Additional observations from a re-analysis of the deposited data

Results flagged for a closer look

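In each genotype, the highest or lowest of the 5 libraries was compared with the spread of the others by Dixon's test, 40 groups in all. These were the 9 genes, the summed CPM of the gene lists and the total counts. The test singled out 7 groups, where chance gives about 2 for normally distributed values. This rate need not hold for *Cd8b1* and *Cd5*, whose counts were at or near 0 in most libraries. *Cd8b1* had 0.0529 CPM in *Ncr1gfp/gfp* replicate 3, a single count, with 0 in the other 4 libraries. *Cd5* had 2.80 CPM in *Ncr1gfp/gfp* replicate 4, with 0.655 in the next library, and 0.450 CPM in *Ncr1+/+* replicate 3, with 0.109 in the next library. The summed CPM of hepatocyte markers was 228 in *Ncr1gfp/gfp* replicate 3, with 147 next, and 185 in *Ncr1+/+* replicate 1, with 146 next. The summed CPM of the genes of RNA quality and stress was 68946 in *Ncr1gfp/gfp* replicate 2, with 63888 next, and 71954 in *Ncr1+/+* replicate 4, with 66800.3 next. *Cd3e*, *Cd3d*, *Cd3g*, *Cd8a*, *Cd4*, *Cd28* and *Cd2* had no library singled out in this way in either genotype.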

How the results depend on the processing

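The call of *Cd3e* and the non-call of *Cd3g* and *Cd2* were the same under the 18 alternatives of test, scaling, filter, block and libraries, leave-one-out fits included. With no fold limit, *Cd3g* was called as well, giving 3 genes higher. The number of called genes was 84, and 128 with DESeq2, 131 with no filter, 138 with the likelihood ratio test, 155 with no fold limit and 23 with an absolute log2 fold change above 1, and 60 to 98 when each library was left out. The 2 genes called higher became 1 to 3 when each library was left out. The 1 gene called lower, *Cd28*, became 0 with DESeq2 (log2 fold change -0.93, adjusted p = 0.0525), 0 with an absolute log2 fold change above 1, 0 without both libraries of high hepatocyte markers (-0.81), and 0 to 1 (-1.09 to -0.75) when each library was left out. *Cd3d* was called with DESeq2 at 1.05, with no filter at 1.04, with at least 10 counts in every library at 1.04 and with the likelihood ratio test at 1.04, and its leave-one-out values were 0.78 to 1.19 (called without *Ncr1gfp/gfp* replicate 1 or 5 or *Ncr1+/+* replicate 5). *Cd8a* lost its call with DESeq2 (1.54, adjusted p = 0.0766), with leave-one-out values of 1.17 to 1.70. *Cd4* turned to -0.16 with limma-voom and to -0.12 without *Ncr1gfp/gfp* replicate 4, its leave-one-out values ranging from -0.12 to 0.49. The 2 correlated pairs became 1 to 3 when each library was left out and 1 without both libraries of high hepatocyte markers, where *Cd3d* and *Cd8a* had r = 0.72. Their leave-one-out r was 0.89 to 0.94, and it did not pass without *Ncr1gfp/gfp* replicate 1 or 5 or *Ncr1+/+* replicate 1. The cause of these changes was not tested.

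The replicate numbers were shared only as numbers (0 of 5 same-number correlations over 0.1, and 1 of 5 numbers best with itself). With the replicate number as a block, *Cd3d* was called at a log2 fold change of 1.02 (adjusted p = 0.0187, edgeR's quasi-likelihood test), and 87 genes were called in all. The block changed no other call among the 7 tested genes.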
